A study of Mus musculus with 26 samples.

Results

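The CD200 family comprises the ligand gene Cd200 and the receptor genes Cd200r1, Cd200r2, Cd200r3 and Cd200r4. These 5 genes, of 55401 in the count tables, were taken by the symbol of their Ensembl identifier. The family had been selected on levels and fold changes measured in these same libraries, and which of the comparisons led to the choice was not recorded, so the levels and fold changes of all 5 members are given as a description and without p-values.

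CD200 is a membrane glycoprotein with immunoglobulin domains that is found on many cell types. CD200R1, its receptor, carries a cytoplasmic tail that recruits the adaptor DOK2 and RAS GTPase-activating protein and thereby inhibits the cell that bears it, and CD200R1 on group 2 innate lymphoid cells (ILC2s) is known as a restraining receptor. The mouse genome also encodes CD200R2, CD200R3 and CD200R4, which have short tails and pair with the activating adaptor DAP12. CD200R3 is best known from mouse mast cells and basophils, and whether these 3 receptors bind CD200 is disputed.

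RNA was sequenced in 26 libraries of lung ILC2s from female mice aged 8 to 16 weeks. In culture, cells of 5 CC030 mice were each divided between AR420626 (10 µM), an agonist of the short-chain fatty acid receptor FFAR3, and DMSO vehicle, both with IL-33, TSLP and IL-2, and were harvested at day 6 and at day 2, which gave 5 AR420626 and 5 vehicle libraries at each day. These ILC2s had been sorted as ST2+. Uncultured ILC2s, sorted through CD25 and ICOS, came from 3 naïve CC030 mice and 3 naïve C57BL/6J mice. CC030 is a Collaborative Cross strain, a recombinant inbred line descended from several founder strains, and C57BL/6J is the strain of the reference genome. There was no C57BL/6J culture and no culture without cytokines. In bulk libraries such as these, fewer cells that express a gene and less RNA per cell cannot be told apart.

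Libraries held between 227445 (AR420626 day 2, mouse 4) and 5320028 (vehicle day 2, mouse 5) counts in genes in the CC030 groups, and 13533363 to 15234305 in C57BL/6J. CC030 reads had been aligned to an mm9 pseudogenome and then moved to mm10 coordinates, and gene levels bear on how far symbols can be trusted. Across genes of chromosome 16, where the whole family lies, Spearman's rho with naïve C57BL/6J was 0.81 in AR420626 and 0.83 in vehicle libraries at day 6, 0.70 and 0.69 at day 2, and 0.43 in naïve CC030. Over the other 19 chromosomes rho was 0.20 to 0.46 in all 5 CC030 groups, so genes elsewhere in the genome are given only by summaries of a list (counts, sums and medians), under symbols that are uncertain in CC030. Naïve CC030 on chromosome 16 lies within that same range. Among the 51 genes within 4 Mb on either side of the family, members included, its value was 0.26. The cultured groups had 0.56 to 0.69. Over the 46 genes without members it was 0.32, against 0.55 to 0.69. By library, rho on chromosome 16 was 0.39 to 0.43 in naïve CC030 and 0.39 to 0.77 at day 2. Counts there also followed exonic length, with rho of 0.78 to 0.81 in naïve CC030 and 0.48 to 0.88 at day 2. At day 6 it was 0.46 to 0.57, and in C57BL/6J 0.33 to 0.34. What lowers the agreement with C57BL/6J was not tested. The members' values are uncertain in naïve CC030, and in day 2 libraries of similar rho. A further check used 220 protein-coding genes of chromosome 16 that had 0 counts in every C57BL/6J library. Their median per library was 0.62 to 1.74 CPM (counts per 1000000 counts in genes) per exonic kb in AR420626 and 0.13 to 1.25 in vehicle libraries at day 6, 0 to 6.49 in AR420626 and 0.22 to 5.28 in vehicle libraries at day 2, and 5.29 to 6.34 in naïve CC030. In most day 2 libraries and in naïve CC030, levels of a few CPM per kb are also found at genes with no count in C57BL/6J. The ILC2 marker list (12 genes, none of them on chromosome 16) had a count for 12 of 12 markers in each group, with a summed level of 55.1 to 331 CPM across the CC030 cultures, 279 to 319 CPM in naïve CC030 and 8262 to 10222 CPM in C57BL/6J.

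**Figure D1:**
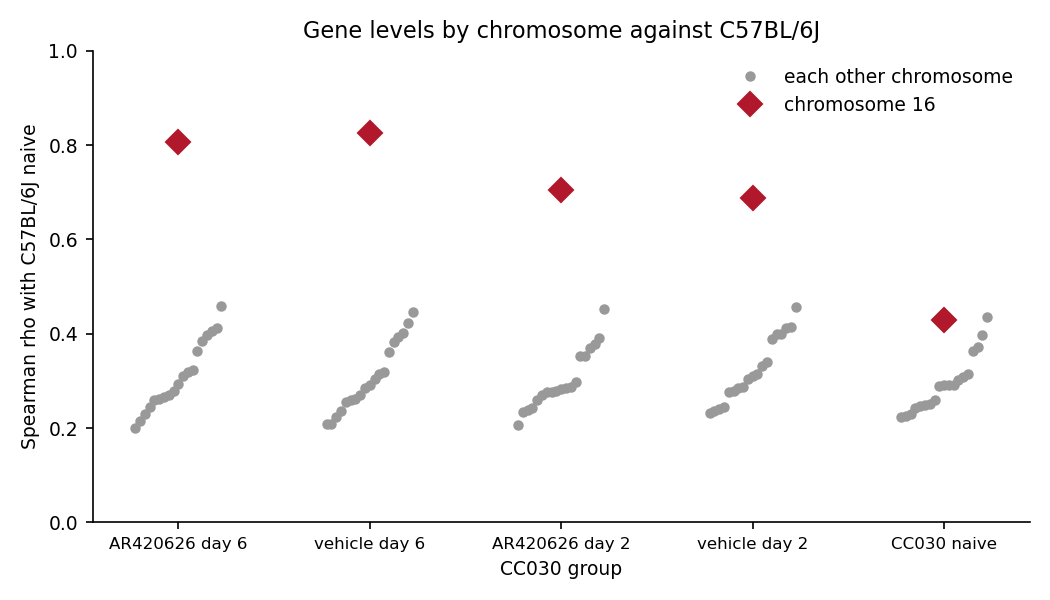
Spearman's rho across genes between each CC030 group and naïve C57BL/6J (vertical axis, no unit), with chromosome 16 as a red diamond and each of the other 19 chromosomes as a grey point. Chromosome 16 stands at 0.81 and 0.83 in the day 6 groups, while the other chromosomes stay between 0.20 and 0.46.

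The 4 receptor genes follow each other on the plus strand of chromosome 16 (GRCm38) within 215.6 kb, in the order Cd200r1 (44765736 to 44794978), Cd200r4 (44811733 to 44839150), Cd200r2 (44867097 to 44915840) and Cd200r3 (44943678 to 44981380). Cd200 (45382135 to 45409053, minus strand) starts 400.8 kb beyond Cd200r3. In the order of position their identifiers are ENSMUSG00000022667, ENSMUSG00000062082, ENSMUSG00000090176, ENSMUSG00000036172 and ENSMUSG00000022661. Each is annotated as protein-coding, and no exon of another gene overlaps theirs. Coding sequences of the receptors were 69.6% to 91.3% identical, with Cd200r4 and Cd200r2 the closest pair and Cd200r1 and Cd200r3 the most distant. Of 50-base words in the transcripts, 4.94% in Cd200r4, 3.59% in Cd200r2 and 1.16% in Cd200r1 were shared with another member, against 0 in Cd200r3 and Cd200. How many reads could not be assigned to 1 of these genes was not measured, and counts of Cd200r4, Cd200r2 and Cd200r1 carry that uncertainty.

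With AR420626 at day 6 the activating-type receptors were lower and the inhibitory receptor was not. Cd200r3 was reduced to a small remainder in all 5 mice, Cd200r4 was several-fold lower, and Cd200r2 was lower by a smaller factor, while Cd200r1 stayed the most abundant member per exonic kb. The edgeR quasi-likelihood test with Benjamini-Hochberg adjustment at 0.05 called 3 of the 5 members lower and 0 higher, where 8.14% of the 9421 genes tested were called lower and 3.3% higher (17.9% and 4.68% of the 470 genes tested on chromosome 16).

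Cd200r3 had 8.33, 6.34, 5.43, 20.9 and 10.2 CPM with AR420626 in mice 1 to 5, against 268, 193, 130, 358 and 126 CPM with vehicle. The groups lay far apart, and within each mouse the AR420626 level was 12.4 to 32.2 times lower. In counts this was 6 to 25 reads per AR420626 library and 149 to 1224 per vehicle library. The log2 fold change was -4.57 ± 0.29 (SE, n = 5 mice), a 23.8-fold lower level. Per exonic kb, Cd200r3 stood at 0.91 to 3.49 CPM with AR420626, which overlaps the medians of the 220 genes without a count in C57BL/6J, and at 21.1 to 59.8 CPM with vehicle.

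Cd200r4 had 85.8, 26.8, 62.4, 42.6 and 72.2 CPM with AR420626, against 419, 198, 138, 574 and 203 CPM with vehicle. The groups again did not overlap, and the level was 2.21 to 13.5 times lower within a mouse (log2 fold change -2.43 ± 0.33). Its size thus varied more among mice than that of Cd200r3, with mouse 4 showing the widest gap and mouse 3 the narrowest.

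Cd200r2, which at 10.9 to 17.2 CPM per exonic kb was the least abundant receptor in vehicle cells at day 6, had 8.33, 9.86, 12.7, 8.35 and 11.1 CPM with AR420626, against 19.1, 19.2, 25.4, 30.1 and 20.2 CPM with vehicle. These groups did not overlap either, although they rest on 10 to 14 counts per AR420626 library and 29 to 103 per vehicle library. The log2 fold change was -1.31 ± 0.39, with a level 1.82 to 3.60 times lower by mouse. Its call was the least stable of the 3, being kept in 6 of 12 alternatives and absent without mouse 1, 2, 4 or 5 (-1.44 to -1.06 over the mice left out) and when libraries were scaled on chromosome 16 genes (-0.96), whereas Cd200r4 was called in 12 of 12 and Cd200r3 in 11 of 11. Without mice 4 and 5, Cd200r3 and Cd200r4 were the 2 members called and Cd200r2 had a log2 fold change of -1.09.

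Cd200r1 had 1142, 1160, 1276, 1212 and 818 CPM with AR420626, against 1082, 829, 660, 1437 and 663 CPM with vehicle, so that the groups overlapped. Its log2 fold change of 0.17 ± 0.25 was not called, and it turned to -0.070 without mouse 3. Cd200, the ligand gene, had 40.8, 33.8, 29.8, 25.1 and 20.4 CPM with AR420626, against 7.42, 18.6, 15.7, 14.3 and 9.51 CPM with vehicle. In these CPM it was 1.75 to 5.50 times higher within each mouse, and its groups did not overlap. On a scale with TMM factors the groups overlapped (25.3 to 60.2 against 13.0 to 48.1). There mouse 4 was lower with AR420626 (38.2 against 48.1). The log2 fold change of Cd200, 1.06 ± 0.37, was not called. It was called in 3 of 12 alternatives, without mouse 4 (1.24), with at least 10 counts in every library (1.26) and scaled on chromosome 16 genes (1.42). In CPM without TMM factors, 5.89% of the genes tested had groups that do not overlap in the lower direction and 3.87% in the higher. Beside them stood 3 members lower and 1 higher. On the same scale, 11.6% of genes were lower and 12.2% higher within every mouse, beside the same 3 members and 1 member.

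**Figure D2:**
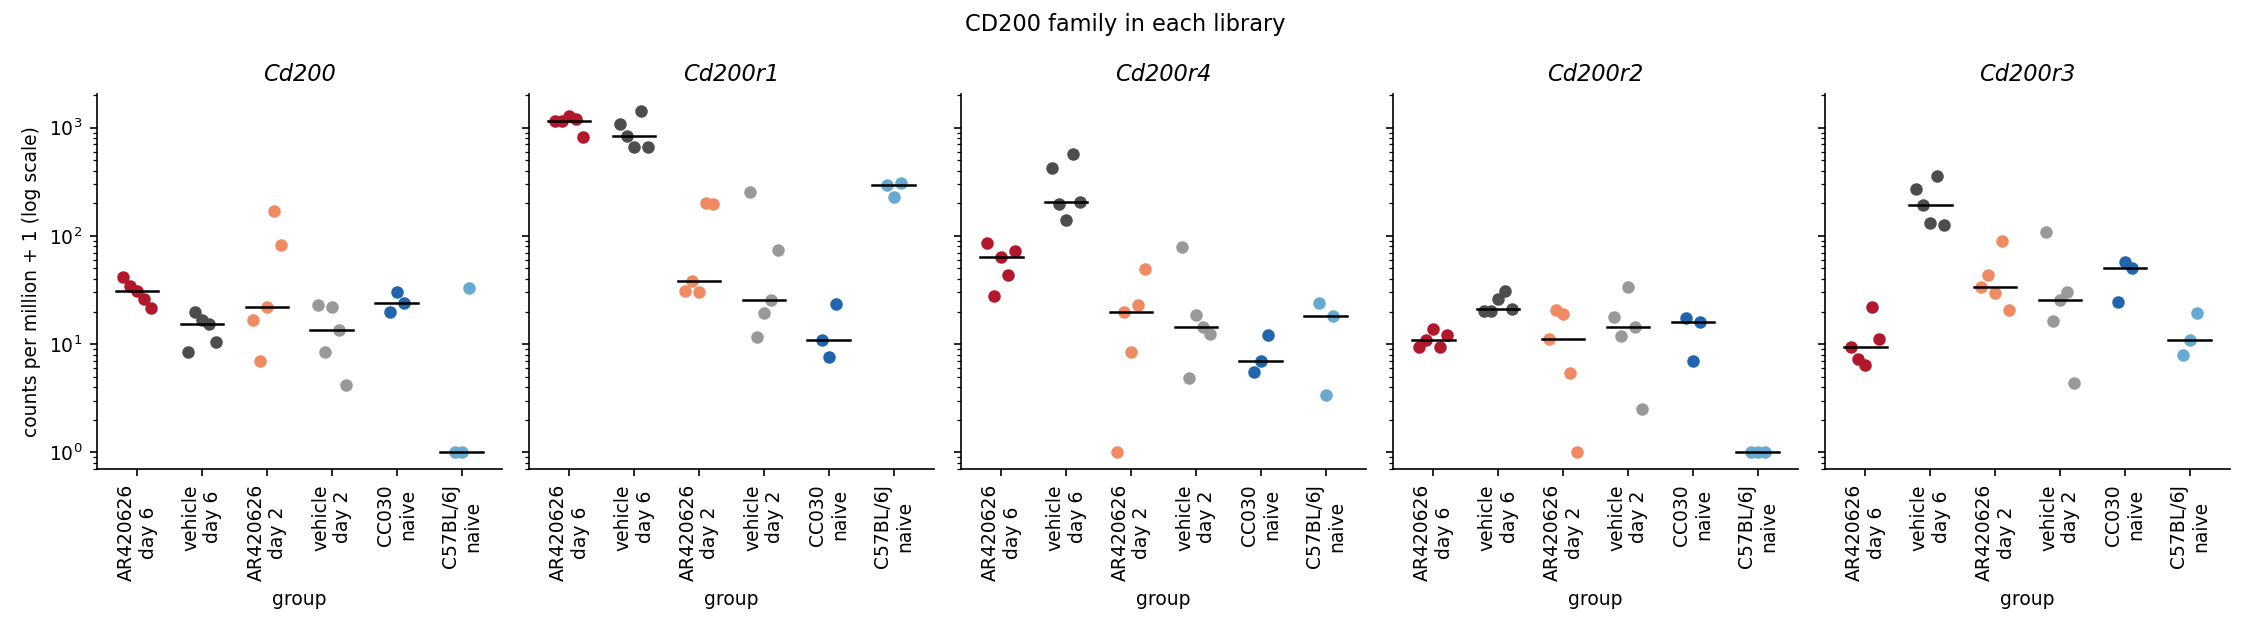
CPM plus 1 (vertical log axis) of each family gene in each of the 26 libraries, 1 point per mouse, with a black line at the group median. At day 6, Cd200r3 lies at 5.43 to 20.9 CPM with AR420626 and 126 to 358 CPM with vehicle, while Cd200r1 overlaps between these groups.

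**Figure D3:**
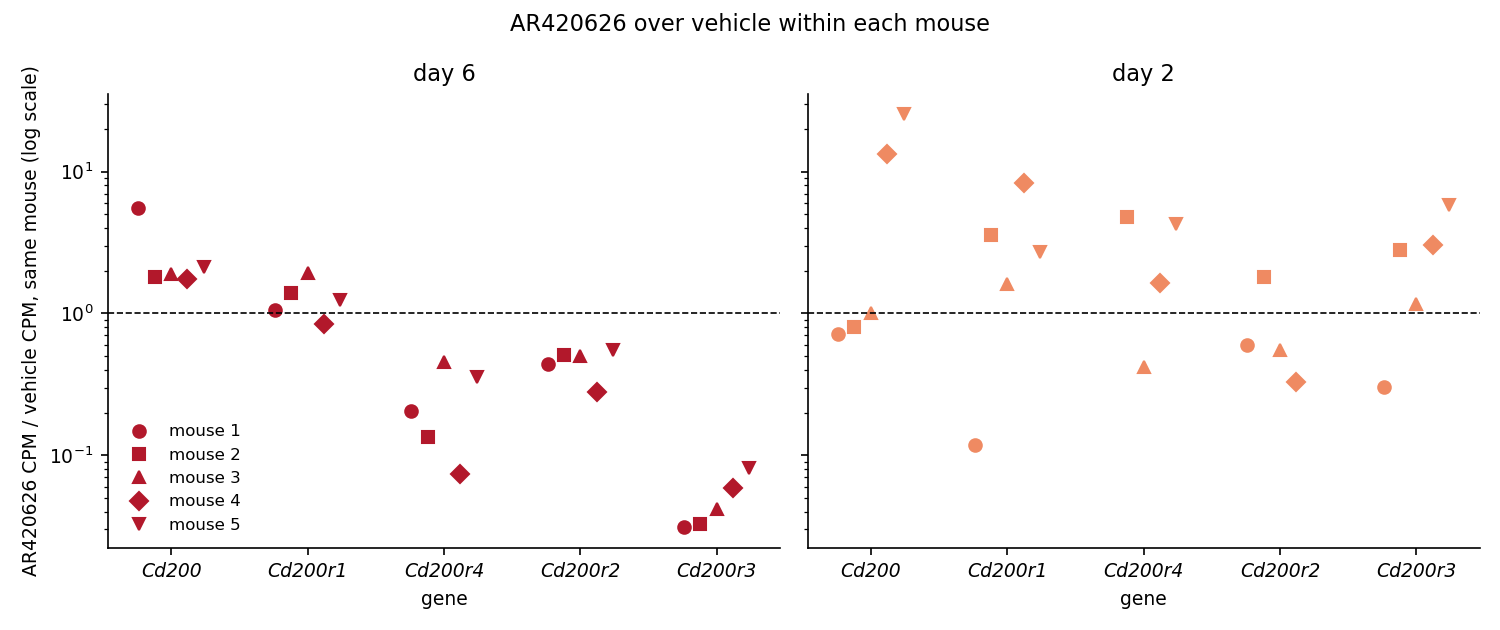
CPM with AR420626 over CPM with vehicle in the same mouse (vertical log axis, dashed line at equality) for each family gene at day 6 (left) and day 2 (right), with a symbol per mouse. Without TMM factors, as drawn here, the ratio of Cd200r3 is 0.031 to 0.081 at day 6 and 0.30 to 5.79 at day 2. The 2 ratios at 0 (Cd200r4 in mouse 1 and Cd200r2 in mouse 5, both day 2) cannot be drawn on a log axis.

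Ratios between receptors within a library do not depend on how libraries are scaled, so the make-up of the receptor counts, which is not corrected for gene length, was also compared. At day 6, Cd200r1 supplied 89.7% to 96.4% of the CPM of the 4 receptors with AR420626, against 59.9% to 69.2% with vehicle. Cd200r3 supplied 0.40% to 1.63% with AR420626, against 12.4% to 15.6% with vehicle, and Cd200r4 supplied 2.22% to 7.92%, against 14.5% to 23.9%. The ratio of Cd200r3 to Cd200r4 was also shifted, with 0.087 to 0.49 in AR420626 libraries and 0.62 to 0.97 in vehicle libraries, so the 2 genes were not reduced by the same factor. Naïve C57BL/6J libraries, of another strain and uncultured, had 89.6% to 94.9% Cd200r1, 2.13% to 5.34% Cd200r3 and 0.98% to 6.99% Cd200r4. Naïve CC030 libraries, of the cultured strain, had 8.85% to 22.8% Cd200r1, 43.1% to 75.2% Cd200r3 and 7.96% to 11.4% Cd200r4, on few counts. At day 2 the share of Cd200r1 was 31.7% to 74.0% with AR420626 and 19.8% to 81.6% with vehicle.

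**Figure D4:**
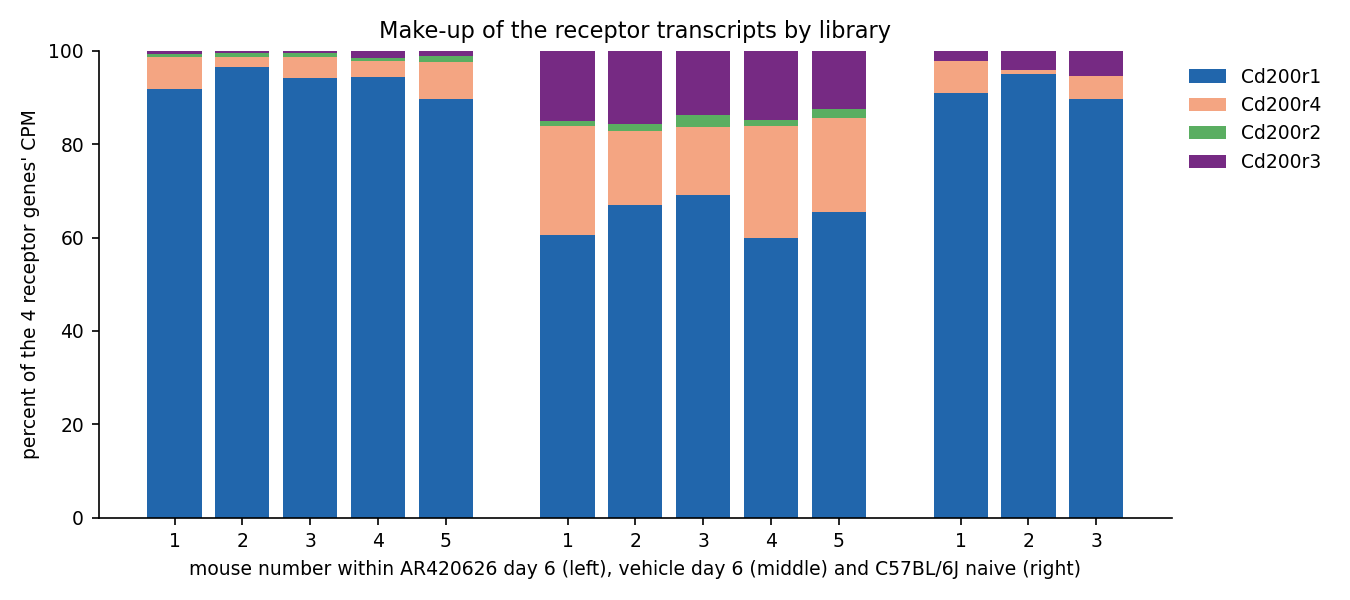
Share of each of the 4 receptor genes in their summed CPM (percent, stacked bars) in each AR420626 day 6, vehicle day 6 and naïve C57BL/6J library. Cd200r1 fills 89.7% to 96.4% of the bars with AR420626 and 59.9% to 69.2% with vehicle.

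Since Cd200r3 and Cd200r4 had the largest reductions, their start regions are shown together with that of Cd200r2, the receptor with the smaller one. The windows run from 250 bases before to 50 bases after the RefSeq start (GRCm38.p6, plus strand) at chr16:44943428-44943727 for Cd200r3, chr16:44820478-44820777 for Cd200r4 and chr16:44866847-44867146 for Cd200r2. RefSeq windows matched 4 of the 5 members, Cd200r1 being the one that did not match. The RefSeq start of Cd200r4 lies downstream of the start of the GENCODE gene given above. Letters are those of the reference genome and not of CC030, and capitals mark the words AGATAA and AGATAG, or the same words with T in the first place, on either strand, which are those bound by GATA factors, among them the ILC2 regulator GATA3.
Cd200r3: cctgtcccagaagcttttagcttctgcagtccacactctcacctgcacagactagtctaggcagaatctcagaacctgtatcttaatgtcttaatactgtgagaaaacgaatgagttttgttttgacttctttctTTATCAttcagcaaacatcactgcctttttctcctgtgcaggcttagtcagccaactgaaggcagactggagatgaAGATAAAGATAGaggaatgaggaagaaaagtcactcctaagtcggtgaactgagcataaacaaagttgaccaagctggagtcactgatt
Cd200r4: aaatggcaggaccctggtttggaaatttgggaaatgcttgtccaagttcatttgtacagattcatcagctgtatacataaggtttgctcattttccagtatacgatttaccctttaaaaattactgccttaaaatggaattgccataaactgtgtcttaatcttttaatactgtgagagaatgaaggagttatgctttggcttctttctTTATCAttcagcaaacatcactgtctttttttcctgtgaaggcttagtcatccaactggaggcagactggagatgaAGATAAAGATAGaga
Cd200r2: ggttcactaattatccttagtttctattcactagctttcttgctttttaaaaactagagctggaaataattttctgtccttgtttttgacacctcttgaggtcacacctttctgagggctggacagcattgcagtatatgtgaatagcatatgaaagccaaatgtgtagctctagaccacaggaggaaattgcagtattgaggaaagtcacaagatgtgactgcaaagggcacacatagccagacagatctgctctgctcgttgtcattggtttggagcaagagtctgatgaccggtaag

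The first 2 windows shared a stretch of 223 aligned bases that were 80.7% identical, and an unbroken run of 32 bases (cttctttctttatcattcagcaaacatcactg) that holds 1 of the GATA words. In Cd200r3 the stretch ran up to base -26, and in Cd200r4 up to base 49 past the start, so that the same letters lie at another distance from the annotated start. Each window held 3 GATA words, 1 on the minus strand at -115 in Cd200r3 and -41 in Cd200r4, and a neighbouring pair on the plus strand at -39 and -33 in Cd200r3 and at 36 and 42 in Cd200r4, which do not overlap. The Cd200r2 window held 0 and the Cd200 window 1, and the best alignment of Cd200r2 with Cd200r3 or Cd200r4 was 59.5% or 59.7% identical. Of 32851 mouse promoter windows of this length, 29.8% held at least 1 of these words and 1.76% held 3 or more. All 3 words of Cd200r3 and of Cd200r4 lie in their shared stretch, so these 2 windows are not independent cases beside those shares. The word TTCNNNGAA, bound by STAT factors, and the word TGACGTCA, bound by CREB, were in none of the 4 windows and in 8.3% and 1.79% of all windows. Such matches are descriptions of letters, and binding was not measured.

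Genes around the family moved in both directions at day 6. Of 51 other genes within 1 Mb, 27 were tested, and edgeR called 7 lower, 1 higher and 19 neither. Directly before the receptors, Gtpbp8 was not called (log2 fold change 0.12, adjusted p = 0.77), and beyond Cd200 neither was Gm609 (0.28, adjusted p = 0.53). Between them, Ccdc80, which encodes a secreted matrix protein, was lower with a log2 fold change of -2.84 ± 0.30 (adjusted p = 8.37e-08), and Atg3, which encodes an enzyme of autophagy, was lower with -1.60 ± 0.24 (adjusted p = 3.16e-05). The single neighbour called higher was Sidt1, a transmembrane protein gene (2.53 ± 0.27, adjusted p = 9.73e-08), on the side of Cd200r1. Of the other genes called lower, the processed pseudogenes Gm5063 (-2.73 ± 0.66) and Gm19142 (-1.20 ± 0.39), named after their values were seen, lie between Cd200r1 and Cd200r4. Beyond Cd200, Gm4737 was called lower at -1.15 ± 0.25 (adjusted p = 0.00183).

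**Figure D5:**
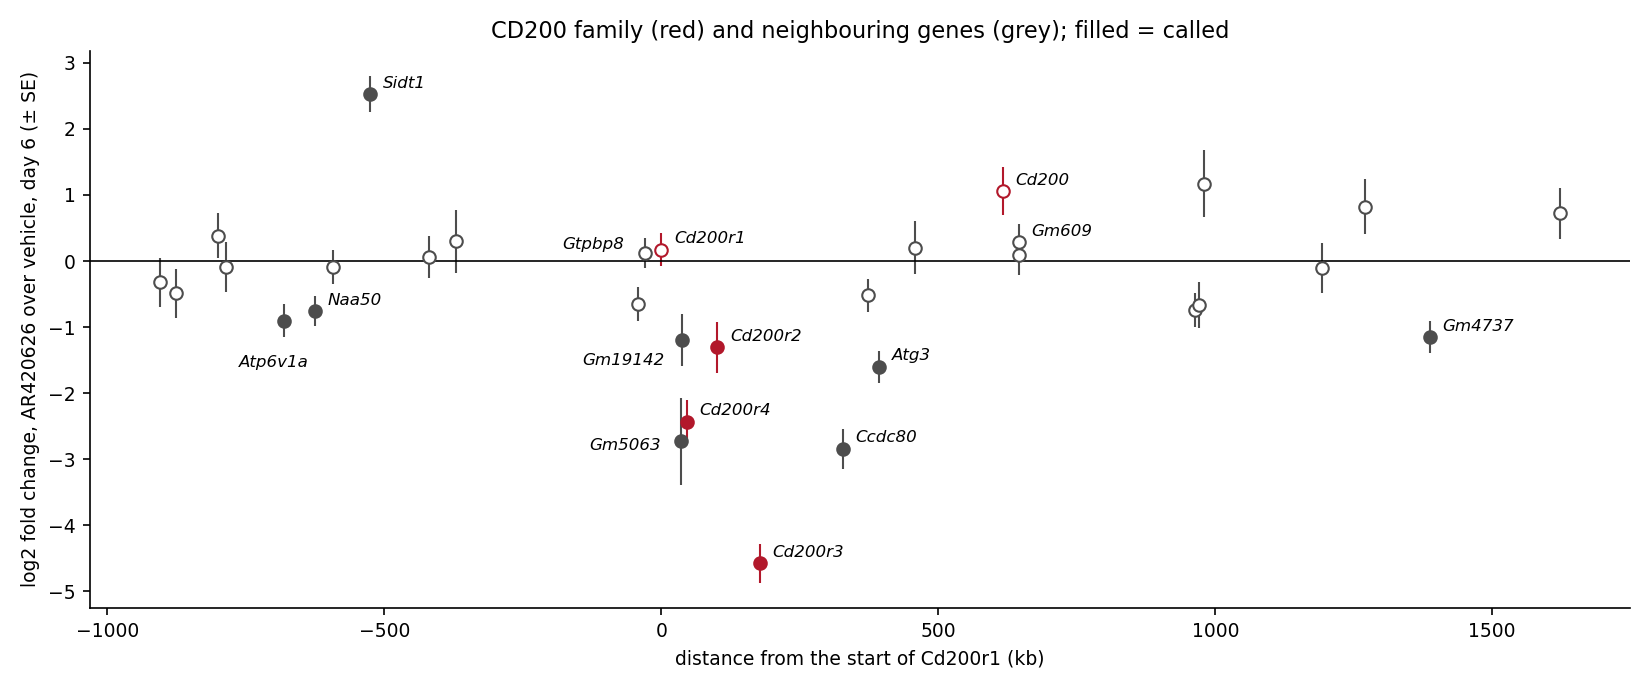
Log2 fold change of AR420626 over vehicle at day 6 with its SE (vertical axis) against the distance of each gene's lowest coordinate from that of Cd200r1 in kb, with family members in red, other genes in grey, and filled points for genes called by edgeR. Cd200r4, Cd200r2 and Cd200r3 lie below 0 at 46.0, 101 and 178 kb, with Ccdc80 and Atg3 beyond them, while Cd200r1 and Gtpbp8 lie near 0.

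Of the genes that act with the family, none of those tested on the signalling lists was called at day 6. Of the inhibitory arm (adaptors and RAS regulators, 9 genes) 5 were tested, and of the activating arm (DAP12, its kinases and their targets, 13 genes) 6 were tested. The genes of DAP12 and DOK2 were among those not tested. Crkl, an adaptor downstream of DOK proteins, had a log2 fold change of -0.44 (edgeR adjusted p = 0.234) and Cblb, a ubiquitin ligase, had -0.037 (adjusted p = 0.942), both of them on chromosome 16. The medians over the genes tested, most or all of them off chromosome 16, were 0.086 and 0.39 log2 units, beside 0.10 over all genes. Of 8 co-receptor genes on chromosome 16, 7 were tested and 2 were called higher. These were Tigit, an inhibitory receptor for nectins (4.45 ± 0.33, adjusted p = 7.76e-11), and Alcam, an adhesion ligand of CD6 (1.04 ± 0.23, adjusted p = 0.00238), whereas Cd47 had 0.72 (adjusted p = 0.0586). Because CD200R3 is known from mast cells and basophils, their 12 markers were summed. All 12 had a count in both day 6 groups, while Mcpt8, Ms4a2, Cma1, Tpsb2 and Cyp11a1 were at 0 in C57BL/6J, and at day 6 the sum was 64.3 to 110 CPM with AR420626 and 65.5 to 114 CPM with vehicle, with 0 of 5 tested called. Of the markers of ILC2s, 4 were tested and 1 was called lower, and of those of T cells (3 tested), B cells (3), myeloid cells (4), NK cells (2) and endothelial and stromal cells (4), 0 were called. These symbols lie off chromosome 16 in CC030 libraries, and the part of such cells in the Cd200r3 level was not tested.

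At day 2 no member was set apart by AR420626. Cd200r3 had 32.4, 42.7, 28.5, 87.9 and 19.6 CPM with AR420626, against 107, 15.2, 24.6, 29.1 and 3.38 CPM with vehicle, and was higher in 4 of 5 mice. With TMM factors its levels were nearly equal in mouse 3 (12.8 against 12.5) and mouse 5 (17.3 against 17.2). The log2 fold change of Cd200r3 was -0.18 ± 0.53. Cd200r1 had 30.2, 37.6, 29.6, 202 and 195 CPM, against 254, 10.5, 18.4, 24.4 and 72.4 CPM, and Cd200r4 had 0, 18.8, 7.39, 22.0 and 49.0 CPM, against 78.7, 3.90, 17.6, 13.4 and 11.5 CPM. For each of these genes the groups overlapped widely. Cd200 stood at 167 and 81.3 CPM in AR420626 mice 4 and 5 and at 5.98 to 21.1 CPM in the others, against 3.20 to 21.8 CPM with vehicle, and Cd200r2 ranged over 0 to 19.6 CPM, against 1.5 to 32.5 CPM. By edgeR 0 of 5 members were called, 0 of them at an unadjusted p under 0.05, where 0% of 20865 genes were called and 403 had such a p. DESeq2 called 31 genes and 0 members. Log2 fold changes ranged from -1.40 ± 0.70 (Cd200r2) to 0.51 ± 0.71 (Cd200), and the sign for Cd200 turned to -0.77 without mice 4 and 5.

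Cd200r1 at day 2 varied with the profile of the library, and the other members did not all follow it. Spearman's correlation with C57BL/6J across chromosome 16 was 0.67 and 0.77 in AR420626 mice 4 and 5 and 0.71 and 0.75 in vehicle mice 1 and 5, and these 4 libraries had the highest Cd200r1 levels of their groups. In the other 6 day 2 libraries rho was 0.39 to 0.51 and Cd200r1 lay at 10.5 to 37.6 CPM. Of the same 4 libraries, vehicle mouse 5 had the lowest CPM of Cd200r3 (3.38), Cd200r2 and Cd200 in its group. AR420626 mouse 5 had the lowest Cd200r3 (19.6 CPM), and AR420626 mice 4 and 5 had the lowest Cd200r2 (4.40 and 0 CPM). With TMM factors these Cd200r2 ranks held, but vehicle mouse 5 had the highest Cd200 of its group (16.3). On that scale neither mouse 5 library was lowest for Cd200r3. It stood at 17.2 in a range of 12.5 to 62.6 with vehicle, and at 17.3 in a range of 12.8 to 45.9 with AR420626. The part of the library profile in the member levels was not tested. The AR420626 library of mouse 4 rests on 227445 counts in genes, where 3 counts equal 13.2 CPM, and its Cd200r2 value is a single count.

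The change of the AR420626 response between the days was tested in 1 model of the 20 cultured libraries. Cd200r3 was the 1 member of 5 called, with an effect at day 6 that was -4.66 ± 0.90 log2 units relative to that at day 2. In that model 0.0519% of 23141 genes were called in either direction and 0.013% in the lower one. The estimate stayed between -5.14 and -4.04 in 11 of 11 alternatives, but the call was kept in 6 of them, being absent without mouse 1, 2, 3 or 4 in turn (-5.14, -4.27, -4.70 and -4.25) and without the mouse block (-4.77). Estimates for the other members were -2.08 ± 1.25 (Cd200r4), -0.63 ± 0.77 (Cd200r2), 0.65 ± 1.37 (Cd200r1) and -0.26 ± 0.87 (Cd200), none of them called.

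Day 6 was also set against day 2 within each treatment. In vehicle cultures 4 of 5 members were called higher at day 6 than at day 2, where 13.6% of 15819 genes and 37.7% of 579 genes on chromosome 16 were. The log2 fold changes were 5.51 ± 1.39 for Cd200r1, 4.87 ± 1.08 for Cd200r4, 4.04 ± 0.88 for Cd200r3 and 1.92 ± 0.50 for Cd200r2, while Cd200 at 1.07 ± 0.51 was not called. Scaled on chromosome 16 genes alone, with a median of all genes of -2.24 (-0.33 otherwise), Cd200r2 stood at 0.024 and Cd200 at -0.79, whereas Cd200r1 (3.52), Cd200r4 (3.06) and Cd200r3 (2.20) were still called higher. The call of Cd200r1 ended without mouse 2, 3 or 4 (4.67, 5.06 and 4.73) and that of Cd200r2 without mouse 1, 2 or 4 (1.92, 1.75 and 1.55). In AR420626 cultures 2 of 5 were called higher, where 10% of 14731 genes and 26.9% of 558 on chromosome 16 were, namely Cd200r1 (5.22 ± 1.26) and Cd200r4 (2.93 ± 0.80). Leaving out mouse 1, 2, 3 or 4 ended both calls, with estimates of 4.74 to 5.70 for Cd200r1 and 2.15 to 3.45 for Cd200r4. Cd200r3 differed from its day 2 level by -0.92 ± 0.48, Cd200r2 by 1.45 ± 0.85 and Cd200 by 1.00 ± 0.75, and none of these was called. Scaled on chromosome 16 genes, Cd200r3 was called lower (-2.01) and Cd200r4 was not called (1.94), and without mice 4 and 5 Cd200 was called higher (2.98). Both comparisons share their mice with the treatment comparisons, and the background at genes without a count in C57BL/6J was higher in most day 2 libraries, by the values given above.

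In naïve mice, Cd200r1 had 9.81, 6.67 and 22.3 CPM in CC030 (13, 10 and 34 counts), against 297, 229 and 308 CPM in C57BL/6J. Per exonic kb it stood at 68.5 to 92.1 CPM in C57BL/6J, where no other receptor passed 11.2 CPM, and the strains did not overlap. Cd200r3 had 23.4, 56.7 and 49.2 CPM in CC030, against 6.95, 9.85 and 18.4 CPM in C57BL/6J, and Cd200r4 had 4.53, 6.00 and 11.1 CPM, against 22.8, 2.36 and 17.3 CPM. Cd200r2 had 16.6, 6.00 and 15.1 CPM in CC030, against 0 counts in all 3 C57BL/6J libraries, where 3 counts per library equal 0.20 to 0.22 CPM, so that its mean was at least 26.0-fold higher in CC030 with TMM factors (37.4-fold per chromosome 16 counts and 60.1-fold in plain CPM, against the same 3 counts). Cd200 had 18.9, 29.3 and 23.0 CPM in CC030, against 0, 0 and 31.9 CPM in C57BL/6J, a spread within C57BL/6J wider than the difference between strains. In CPM, 1 member (Cd200r1) was lower without overlap and 2 (Cd200r2 and Cd200r3) were higher, where 8.99% and 77.1% of genes were. With TMM factors the strains overlapped for Cd200r3 (15.6 to 38.5 in CC030, 11.4 to 24.4 in C57BL/6J).

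Between the strains, edgeR called Cd200r1 lower (log2 fold change -5.61 ± 0.57) and Cd200r2 higher, 2 of 5 members, where 12.2% of 35551 genes were called lower and 64.1% higher. Cd200r3 (0.74 ± 0.62), Cd200r4 (-2.14 ± 0.92) and Cd200 (0.17 ± 2.04) were not called, but Cd200 was called higher without C57BL/6J mouse 3 (8.94), when 4 of 5 members were called, and stood at 6.21, not called, with a replicate block. Without that mouse, without C57BL/6J mouse 2 or scaled on chromosome 16 genes, Cd200r4 was called lower as well (-2.43, -2.83 and -2.44). Cd200r3 was called higher by DESeq2 (1.35) and with at least 10 counts in every library (1.57). Per exonic kb the 5 members averaged 3.53 to 7.20 CPM in naïve CC030, beside a median of 5.29 to 6.34 CPM for genes of chromosome 16 without a count in C57BL/6J. With the uncertainty of naïve CC030 given above, these strain values are those of the rows that carry the members' identifiers. The strain, the genome used for alignment and the number of counts in genes differ together here and cannot be told apart.

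Across the 20 cultured libraries, the genes of chromosome 16 whose levels followed each member most closely were listed by Spearman's rho over 729 genes. These levels were CPM with TMM factors. The list is a description in which day and library profile are shared by all points. For Cd200r1 they were its neighbour Gtpbp8 (0.98), Etv5 (0.96) and 4930453N24Rik (0.95). Cd200r4 was followed by Ube2l3 (0.98), 0610012G03Rik (0.98) and Smim11 (0.97), and Cd200r2 by Gm49584 (0.88), Gm19142 (0.87) and Gm16861 (0.84). Cd200 was followed by Ccdc50 (0.82), Alcam (0.81) and Gm5963 (0.80). Cd200r3 had no follower above Xxylt1 (0.72), Rtp4 (0.67) and Gm8130 (0.63), and its rho with the other members was 0.50 for Cd200r4, 0.37 for Cd200r2, 0.26 for Cd200r1 and 0.044 for Cd200.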

How the data were processed

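Bulk RNA-seq of mouse lung ILC2s was made with the SMART-Seq v4 kit. Per the submitters' processing notes and methods, reads were checked with FastQC, trimmed with fastp and aligned with STAR, C57BL/6J reads to mm10 and CC030 reads to an mm9 pseudogenome whose alignments lapels moved to mm10. What the authors deposited are HTSeq raw counts, without normalization, and the sources used here do not name the annotation. Of 55401 identifiers, 55141 matched GENCODE vM21, which gave symbols and positions, and promoter sequences are from RefSeq. Members and gene lists were chosen with earlier results of these data known.

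Counts were tested with edgeR 4.0.16 in R 4.3.3 (TMM normalization, filterByExpr at 10 counts, and 15 in total, quasi-likelihood F-test, Benjamini-Hochberg adjustment over all genes at 0.05), over the libraries of each of 6 comparisons. Cultured comparisons had mouse as a block, since the labels give each mouse's cells to both treatments and both days. The strain comparison had none, its replicate numbers being different mice. SEs were derived from the F statistic. CPM are counts per 1000000 counts in genes, without TMM factors, which ranged from 0.199 to 2.66 over the 26 libraries. Fold changes, and the rho values between genes across the cultured libraries, carry these factors. In cultured libraries 2.66% to 12.3% of reads were in genes, and the HTSeq summary rows were left out of totals and tests. Floors of 3 counts cover counting error only, while SEs include the variation between mice. Genes named by rule were all members, the protein-coding genes next to the family and up to 4 neighbours with the smallest p, the signalling genes on chromosome 16, up to 3 co-receptors with the smallest p, and for each member the 3 genes most like it (Spearman's rho, members with at least 10 counts on average). Alternatives were DESeq2 1.42.0, edgeR with DESeq2's size factors, fits with every gene kept, fits with genes that reach 10 counts in each library, scaling on chromosome 16 genes, the block added or removed, leaving out each mouse, and leaving out mice 4 and 5.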

Additional observations from a re-analysis of the deposited data

Results flagged for a closer look

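Of 20 combinations of a family gene and a group of 5 cultured libraries, 3 had a library far from the rest of its group. Chance marks about 1 in 20 where values follow a normal distribution, which was not tested for these CPM. The 3 come from 1 library and are not independent. All 3 were the vehicle library of mouse 1 at day 2, with 254 CPM for Cd200r1 (next highest 72.4), 107 CPM for Cd200r3 (next highest 29.1) and 78.7 CPM for Cd200r4 (next highest 17.6). These CPM are without TMM factors. With them, mouse 1 stayed highest of the group for Cd200r3 (62.6). Mouse 5 was then higher than mouse 1 for Cd200r1 (368 against 148) and for Cd200r4 (58.3 against 46.0).

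The response to AR420626 differed between the days for Cd200r3, with a log2 effect at day 6 that was -4.66 relative to day 2 by the interaction term. Within mice, the ratio of AR420626 to vehicle in CPM without TMM factors was 0.031 to 0.081 at day 6 and 0.30 to 5.79 at day 2. The ratio of 5.79 was that of mouse 5, with 20 against 18 counts. With TMM factors its levels at day 2 were 17.3 and 17.2.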

How the results depend on the processing

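Of 344 values of family genes under alternatives, 285 kept direction and side of the threshold, 28 lost a call, 12 gained one and 19 turned direction. The reductions of Cd200r3 (-4.92 to -4.18) and Cd200r4 (-2.81 to -2.01) at day 6 kept their calls in all alternatives in which they could be tested. The cause of the changes below was not tested.

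Directions turned, without a call, for Cd200r1 at day 6 without a filter (-0.058) and at day 2 with at least 10 counts in every library (0.040), and for Cd200 at day 2 without mice 4 and 5 (-0.77), in the difference between days without mice 4 and 5 (1.89) or scaled on chromosome 16 (0.38), in vehicle day 6 against day 2 with at least 10 counts (-0.060) or scaled on chromosome 16 (-0.79), and in AR420626 day 6 against day 2 scaled on chromosome 16 (-0.11). Leaving out 1 mouse at a time gave -0.34 to 8.94 for Cd200 between strains, -0.070 to 0.38 for Cd200r1 at day 6, -0.12 to 0.99 for Cd200, -0.88 to 0.55 for Cd200r1 and -0.50 to 0.27 for Cd200r3 at day 2, and -1.10 to 0.71 for Cd200 and -0.17 to 1.58 for Cd200r1 in the difference between days.

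Leaving out 1 mouse at a time, edgeR called 604 to 1221 genes at day 6 (1078 with all mice), 0 to 33 genes and 0 to 1 members in the difference between days, 994 to 5376 genes and 2 to 5 members in vehicle day 6 against day 2, 253 to 2772 genes and 0 to 2 members in AR420626 day 6 against day 2, and 2 to 4 members between strains. Without mice 4 and 5 the counts were 361 genes at day 6, 59 in the difference between days, 4337 for vehicle and 3458 for AR420626 across days. DESeq2 called 31 genes at day 2, 260 in the difference, 4154 for vehicle and 3637 for AR420626 across days. Without a filter 15 genes were called at day 2 and 20 in the difference. With at least 10 counts in every library 3573 genes were called between strains, 6 genes and 0 members in the difference, and 1 member in AR420626 across days.

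Scaling on chromosome 16 genes moved the median of all genes to 0.44 at day 6 (0.10 otherwise), 0.80 in the difference between days (0.28), -2.24 for vehicle (-0.33) and -1.39 for AR420626 (-0.26) across days, and at day 6 called 607 genes higher and 339 lower, against 311 and 767 otherwise (192 and 1037 by DESeq2, and 510 and 509 with at least 10 counts in every library). It called 22 genes in the difference between days, 9764 for vehicle across days (1082 higher and 8682 lower, against 2152 and 590, or 1152 and 1247 with at least 10 counts in every library) and 4137 for AR420626 (888 and 3249, against 1479 and 168, or 726 and 825). Without the replicate block, 2 genes and 0 members were called in the difference between days, and with a replicate block between strains the same number of members (2) was called. The block changed no other count of calls by more than 1.5 times.

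Depth limits the members with few counts, among them Cd200r2 and Cd200 in all CC030 groups and Cd200r3 in AR420626 libraries at day 6. It also limits Cd200r1 and Cd200r4 in naïve CC030 (10 to 34 and 6 to 17 counts per library). Cd200r4 had 0 to 50 counts in AR420626 libraries at day 2. Levels of a few CPM per kb in most day 2 libraries and in naïve CC030 are also found at genes without a count in C57BL/6J.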
